A study of Mus musculus with 3 samples.

Results

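Hair germ and lower outer root sheath cells were chosen from the cell barcodes of 3 single-cell RNA libraries of mouse back skin, and 259 of 8851 kept cells met the rule. A kept cell had more than 200 and fewer than 5000 genes detected and under 15% of its transcripts from mitochondrial genes. A hair germ cell, as the term is used here, was a kept cell with at least 1 unique molecular identifier (UMI, 1 counted transcript) for at least 4 of the 8 genes Lgr5, Nppc, Scrg1, Slc7a8, Col12a1, Heg1, Dhrs9 and Abi3bp. In addition, the basal keratins Krt14 and Krt5 made up at least 0.2% of its UMIs, the bulge keratin Krt24 and the proliferation genes Top2a and Mki67 had 0 UMIs, and Pdzrn3 had at most 1. The rule read the expression values themselves, so the levels of these genes describe how the cells were chosen and were not tested.

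The hair germ is the small cluster of epithelial cells at the base of the resting follicle, between the bulge and the dermal papilla. It is primed by signals from the papilla and is the first part of the follicle to divide when a new hair cycle starts. During growth and regression the same Lgr5-expressing territory lies in the lower outer root sheath, and the quiescent stem cells of the bulge, marked by CD34 and keratin 15, lie above it.

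The study followed follicle cells through aging, and the groups used here are skin aged P38, 6 months and 12 months. The labels give all 3 as wildtype with no treatment, and the study's methods describe mice carrying Krt14-H2B-GFP, a histone-GFP fusion driven by the keratin 14 promoter in basal epithelium, and a sort of epithelial cells by flow cytometry. The youngest mouse is described as male and in synchronized catagen, the middle one as female and mostly in anagen, and the oldest as male with mixed telogen and anagen follicles. Each age was 1 library, so that age, sex, hair cycle stage, sequencing depth and library cannot be told apart.

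The 250 bases before the transcription start are shown for 3 genes. Nppc and Slc7a8 were the most abundant of the 8 rule genes in the 6 months cells, and Gja1 was the most abundant of the 12 genes with the largest excess over the outer bulge. The sequences are from RefSeq on GRCm38.p6 and are written on the strand of the gene. Capitals mark a match to CTTTGA or its reverse complement TCAAAG (the core of TCF/LEF sites), to TAATTA (a homeodomain core) or to TGACTCA or its reverse complement TGAGTCA (an AP-1 site), searched on both strands.
Nppc, chr1:86670574-86670823, minus strand: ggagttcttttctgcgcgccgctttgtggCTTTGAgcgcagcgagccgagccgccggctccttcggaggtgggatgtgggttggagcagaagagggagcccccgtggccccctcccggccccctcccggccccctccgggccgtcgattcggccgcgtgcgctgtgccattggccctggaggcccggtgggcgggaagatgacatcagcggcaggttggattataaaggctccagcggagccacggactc
Slc7a8, chr14:54781887-54782136, minus strand: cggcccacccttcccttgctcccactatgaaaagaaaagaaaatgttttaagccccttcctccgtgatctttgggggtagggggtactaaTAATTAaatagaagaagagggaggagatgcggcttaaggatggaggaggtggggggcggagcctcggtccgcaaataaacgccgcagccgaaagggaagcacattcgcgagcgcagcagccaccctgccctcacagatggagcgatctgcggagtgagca
Gja1, chr10:56377050-56377299, plus strand: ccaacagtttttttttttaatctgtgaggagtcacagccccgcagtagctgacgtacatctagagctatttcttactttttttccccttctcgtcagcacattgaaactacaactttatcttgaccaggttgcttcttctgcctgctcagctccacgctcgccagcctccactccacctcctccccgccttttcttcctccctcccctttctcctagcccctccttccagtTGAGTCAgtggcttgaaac
In these windows the TCF/LEF core began 221 bases before the start of Nppc, the homeodomain core 160 bases before that of Slc7a8 and the AP-1 site 19 bases before that of Gja1. Of the 8 rule genes and the 12 genes with the largest excess over the outer bulge, 14 of 20 had a RefSeq promoter, with 16 promoters in all. The TCF/LEF core was present for 2 of these genes (Nppc and Cmah), the homeodomain core for 1 (Slc7a8) and the AP-1 site for 4 (Dhrs9, Procr, Cxcl10 and Gja1). Among 32851 promoters of the same length, 13.8%, 4.84% and 4.46% held these motifs in that order. A match describes letters in a window and no binding was measured.

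At P38 the rule was met by 128 of 2109 kept cells (6.07%, 95% exact binomial interval 5.09 to 7.17). The 6 months library gave 116 of 3502 (3.31%, 2.74 to 3.96) and the 12 months library 15 of 3240 (0.463%, 0.259 to 0.762). Intervals here and below cover counting error only, since a library is 1 sample. Among cells with at least 0.2% of UMIs from Krt14 and Krt5, the hair germ cells made up 6.63% (of 1930 at P38), 4.22% (of 2751, 6 months) and 0.697% (of 2151, 12 months). The hair germ cells held a median of 15166.5, 14347.5 and 19309 UMIs at P38, 6 months and 12 months, and together 1962637, 1672325 and 284841 UMIs. The 3 libraries held 40509290, 48722038 and 48887123 UMIs over all barcodes, and the median kept cell had 16170, 1019 and 11438.5 UMIs, so most kept cells at 6 months were much shallower than the hair germ cells chosen from them.

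Detection of 4 of 8 genes depends on depth, so the shares were also taken over cells with at least 0.2% of UMIs from Krt14 and Krt5 and at least 3000 UMIs. With each of these cells thinned to 3000 UMIs, the rule was met at P38 by 54 of 1842 cells (2.93%, 2.21 to 3.81). The 6 months library then gave 103 of 1042 (9.88%, 8.14 to 11.9), and the 12 months library 0 of 2050, so that its share could be as high as 0.180%. The same cells before thinning gave 6.89% at P38, 11.04% at 6 months and 0.732% at 12 months, and 88, 1709 and 101 shallower cells were left out. The share at 12 months was the lowest in each of these counts. At 6 months it was below P38 over cells of any depth and above P38 once the shallower cells were left out, before thinning as well as after it. The limits on Krt24, Top2a, Mki67 and Pdzrn3 were also read on the thinned counts, so thinning could add cells as well as remove them. At 6 months and 5000 UMIs, 136 of 989 cells met the rule thinned and 112 unthinned.

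The number of rule genes per cell was lower at 12 months, although its cells were the deepest. At P38 93 of the 128 hair germ cells and at 6 months 102 of the 116 held 5 or more of the 8 genes. At 12 months 13 of the 15 held exactly 4 and the other 2 held 5, while 37 further cells that met every other condition held exactly 3. At P38 the cells with 3 and with 4 rule genes numbered 42 and 35, and Gas1, which the rule did not read, had 399 CPM (counts per 1000000 UMIs) in those with 3 and 688 CPM in those with 4. At 6 months these Gas1 levels were 170 and 793 CPM, and at 12 months 251 and 78.7 CPM. Cells just inside the threshold thus had more Gas1 than those just outside at P38 and 6 months, and less at 12 months. At 6 months these were 14 and 18 cells. Cells there with 2, 5, 6, 7 and 8 rule genes had 398, 445, 311, 514 and 644 CPM, so Gas1 did not rise steadily with their number. These values are given without a test.

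**Figure D1:**
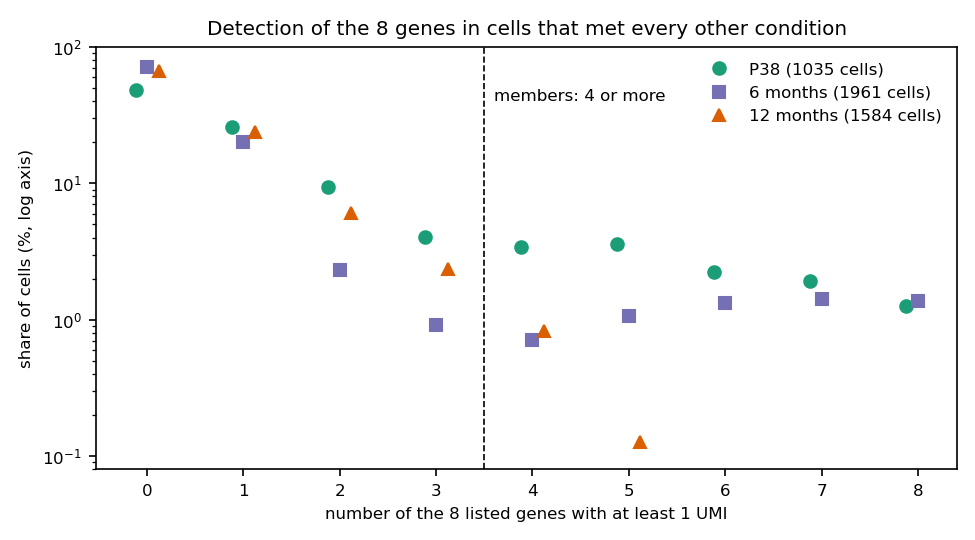
Share of cells (vertical axis, percent, logarithmic) by how many of the 8 rule genes had at least 1 UMI (horizontal axis), among the 1035, 1961 and 1584 cells at P38, 6 months and 12 months that met every other condition of the rule. The points run on to 8 genes at P38 and 6 months, with 13 and 27 cells there, whereas at 12 months they end at 5 genes with 2 cells.

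The rule genes themselves were present at high levels at P38 and 6 months. Nppc, which encodes the precursor of C-type natriuretic peptide (chr1:86666293-86670573), reached 1529 CPM at P38 (95% exact Poisson interval 1475 to 1585), 1153 at 6 months (1103 to 1206) and 176 at 12 months (130 to 231) in hair germ cells, against 206, 135 and 17.5 CPM in outer bulge cells. Lgr5, an R-spondin receptor (chr10:115450314-115587780), had 192, 146 and 123 CPM in hair germ cells, against 132, 147 and 200 CPM in outer bulge cells. Lgr5 was therefore at a similar level in both classes at 6 months and lower in the hair germ cells at 12 months. In spinous cells, which should lack both genes, Lgr5 was between 0 and 0.76 CPM, and Nppc was between 1.35 and 6.23 CPM in interfollicular basal and spinous cells.

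Scrg1, which encodes a small secreted protein (chr8:57455882-57479360), had 195, 236 and 7.02 CPM in hair germ cells at P38, 6 months and 12 months, against 22.0, 30.3 and 3.51 CPM in outer bulge cells. Slc7a8, the LAT2 transporter of neutral amino acids (chr14:54722215-54781886), had 145, 440 and 49.2 CPM, against 15.2, 16.1 and 10.5 CPM. Dhrs9, a dehydrogenase that acts on retinol and related substrates, had 55.5, 166 and 0 CPM, against 0.4, 8.07 and 0 CPM. At 6 months Slc7a8, Dhrs9 and Heg1 were well above their P38 levels, and at 12 months Scrg1 was seen in 2 of 15 cells and Dhrs9 in none.

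Col12a1, a fibril-associated collagen, had 228, 284 and 42.1 CPM in hair germ cells, against 31.2, 98.9 and 59.6 CPM in outer bulge cells. Heg1, a transmembrane receptor best known from vessels, had 63.2, 185 and 42.1 CPM, against 14.4, 62.5 and 10.5 CPM. Abi3bp, an extracellular matrix protein, had 148, 129 and 467 CPM (391 to 553 at 12 months), against 22.4, 8.07 and 21.0 CPM. Abi3bp was the only rule gene that was highest at 12 months, where it was also seen outside the hair germ cells at 170 CPM in T cells and 88.6 CPM over the other kept cells.

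The label was checked against genes outside the rule. Gas1, a membrane-anchored co-receptor for hedgehog ligands (chr13:60174405-60177535), had 669 CPM at P38 (633 to 706), 523 at 6 months and 70.2 at 12 months (42.9 to 108) in hair germ cells, against 498, 1035 and 512 CPM in outer bulge cells. Dkk3, a secreted protein of the Dickkopf family, had 72.9, 70.0 and 31.6 CPM, against 96.4, 202 and 281 CPM. Both markers were called higher than in the interfollicular basal cells in the test described below. Neither was higher than in the outer bulge in all 3 libraries. At 12 months Gas1 had 60.6 and 81.7 CPM in cells that met every other condition with 0 and 1 rule genes. Cd34, the bulge marker, had 65.2, 173 and 17.6 CPM in hair germ cells, against 440, 581 and 614 CPM in outer bulge cells, whose own rule required it.

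The label was least secure at 12 months, but Gas1 and Dkk3 were below the outer bulge at 6 months too. Cd34 had UMIs in 53 of 128, 86 of 116 and 2 of 15 hair germ cells at P38, 6 months and 12 months. Sox9, a transcription factor of the outer root sheath and bulge, had 1221, 778 and 126 CPM in these cells in the same order. Krt15, a marker of the bulge and not of the hair germ, had 8801, 2059 and 657 CPM. Krt17, a keratin of the follicle, stayed high with 1727, 3855 and 3002 CPM, and Cdh3 (P-cadherin, a cadherin of the hair germ) had 130, 133 and 98.3 CPM. The 15 cells at 12 months are called hair germ cells below by their rule only, and the counts of called genes are given without them as well. Defining genes of Langerhans cells, macrophages and the dermal papilla were near 0: of 5 Langerhans and macrophage genes all were at 0 at P38 and 12 months and their sum was 1.20 CPM at 6 months, and 6 of 7 dermal papilla genes were at 0 in each library, with sums of 1.02, 2.39 and 3.51 CPM. T cell, smooth muscle and fibroblast genes were present. The 7 T cell genes summed to 46.4, 133 and 17.6 CPM, against 17.1, 118 and 113 CPM in the other kept cells, with Cd3d, Cd3g and Cd2 at 0 in all 3 libraries. The 4 smooth muscle genes summed to 10.2, 173 and 172 CPM, against 2.0, 20.2 and 17.5 CPM in outer bulge cells and 3.40, 74.6 and 76.6 CPM in the other kept cells. The 7 fibroblast genes summed to 55.0, 13.2 and 42.1 CPM, against 10.4, 52.5 and 52.6 CPM in outer bulge cells. In the other kept cells they summed to 5.75, 2481 and 6698 CPM. The hair germ sums thus lay above those of the other kept cells at every age for smooth muscle genes. For T cell genes they did so at P38 and 6 months, and for fibroblast genes at P38. At 6 months 10 of the 116 hair germ cells held at least 2 of 7 T cell genes, and at P38 2 of the 128 also met the rule used below for the inner bulge. The part of these transcripts in the results was not tested. The 6 and 12 months libraries shared 136 cell barcodes and the other pairs 5 and 2, none of them of a hair germ cell.

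**Figure D2:**
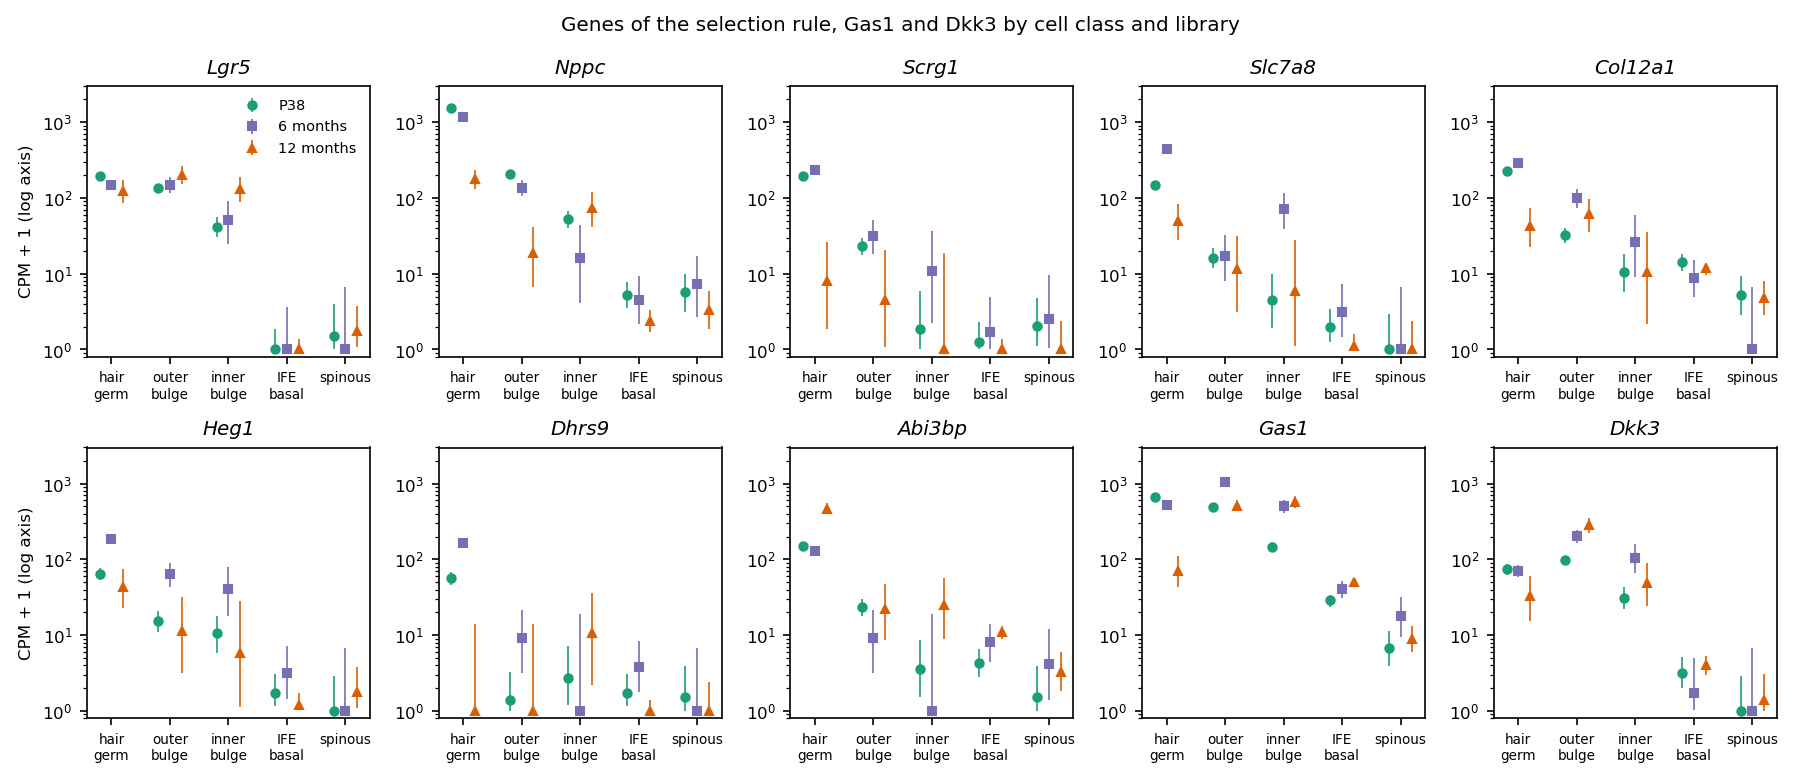
Levels of the 8 rule genes, Gas1 and Dkk3 (vertical axis, CPM + 1, logarithmic) in hair germ, outer bulge, inner bulge, interfollicular epidermal (IFE) basal and spinous cells, 1 point per library, with 95% exact Poisson intervals. Nppc lies between 176 and 1529 CPM in hair germ cells and between 17.5 and 206 CPM in outer bulge cells, whereas the Gas1 values of these classes overlap and every Dkk3 value of hair germ cells lies below every outer bulge value.

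The hair germ cells were then compared with 3 other epithelial classes. Outer bulge cells (168, 45 and 43 cells at P38, 6 months and 12 months) had at least 1 UMI each of Krt24 and Cd34. Inner bulge cells (85, 16 and 23 cells) had at least 3 of Fgf18, Bmp6, Tgm5, Pcdh7 and Sncg. Interfollicular basal cells (217, 120 and 737 cells) had at least 1 UMI of Ly6a and no Lgr5. UMIs were summed per class and library, and the 3 libraries were the replicates of each class, with the library as a block. edgeR's quasi-likelihood test with Benjamini-Hochberg adjustment called a gene at an adjusted p under 0.05 and an absolute log2 fold change of at least 1. The test gives no standard error (SE). Each SE below is the absolute log2 fold change divided by the square root of the test's F statistic. None of the 24 genes read by a rule was counted. A gene that varies from cell to cell together with the rule genes can differ through the choice of cells alone, and this applies to all 3 comparisons.

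Against the outer bulge, few genes were called. Of 9320 genes tested, 53 were higher (0.569%) and 77 lower (0.826%) in hair germ cells, with a median log2 fold change of 0.04 over all genes. The counts were 82 higher and 68 lower without the 12 months library, 10 and 39 without P38, and 4 and 1 without 6 months, with the fewest calls left without the 6 months library.

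Gja1, which encodes connexin 43, a gap junction protein, had 1429, 2921 and 716 CPM in hair germ cells at P38, 6 months and 12 months, against 183, 313 and 42.1 CPM in outer bulge cells. All 3 hair germ values lay above all 3 bulge values, and the log2 fold change was 3.39 ± 0.31 (SE, adjusted p = 0.00028). Lbh, a transcriptional regulator that is a target of Wnt signals, had 139, 223 and 91.3 CPM, against 10.8, 28.2 and 3.51 CPM (3.53 ± 0.32, adjusted p = 0.00028). Both kept their call without each library in turn, and Gja1 had an adjusted p of 0.06 without the library block.

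Angptl4, a secreted inhibitor of lipoprotein lipase, had 459, 506 and 151 CPM in hair germ cells, against 32.8, 16.1 and 0 CPM in outer bulge cells (log2 fold change 4.25 ± 0.56, adjusted p = 0.0025). Hilpda, which restrains lipolysis at lipid droplets, had 303, 140 and 52.7 CPM, against 21.2, 18.2 and 7.02 CPM (3.38 ± 0.45, adjusted p = 0.0025). The hair germ values lay above the bulge values in every library for both of these genes of lipid handling. Sox4, a transcription factor of progenitor cells, had 498, 521 and 267 CPM, against 30.0, 26.2 and 3.51 CPM (4.27 ± 0.61, adjusted p = 0.0038).

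Cmah, the enzyme that hydroxylates sialic acid, had 58.1, 378 and 7.02 CPM in hair germ cells, against 1.2, 16.1 and 0 CPM in outer bulge cells (5.06 ± 0.57, adjusted p = 0.0013). Basp1, a membrane-bound protein abundant in growing axons, had 12.7, 138 and 105 CPM, against 0.4, 10.1 and 0 CPM (4.64 ± 0.65, adjusted p = 0.0037), and Lamb1, the laminin beta 1 chain, had 21.9, 109 and 77.2 CPM, against 2.0, 8.07 and 0 CPM (4.12 ± 0.62, adjusted p = 0.0053). For Basp1 the P38 hair germ value lay within 3 CPM of the 6 months bulge value, while Cmah at 12 months fell below the 6 months bulge value. At 6 months Cmah was seen in 89.7% of hair germ cells and 6.67% of outer bulge cells, and Basp1 in 52.6% and 6.67%. At P38 Basp1 had 25 UMIs in hair germ cells, 84% of them in 5 cells.

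Of the other genes with the largest excess, 4 were seen in a minority of cells. Ccl2, a chemokine for monocytes, had 608, 41.3 and 7.02 CPM in hair germ cells, against 17.2, 2.02 and 0 CPM in outer bulge cells (4.73 ± 0.63, adjusted p = 0.0025). Cxcl10, an interferon-induced chemokine, had 212, 37.1 and 323 CPM, against 3.6, 4.04 and 0 CPM (5.54 ± 0.93, adjusted p = 0.01). Epgn, the epidermal growth factor receptor ligand epigen, had 131, 51.4 and 895 CPM, against 8.8, 2.02 and 7.02 CPM (5.08 ± 0.88, adjusted p = 0.011). Procr, the endothelial protein C receptor, had 197, 41.3 and 24.6 CPM, against 1.2, 6.05 and 3.51 CPM (5.83 ± 0.92, adjusted p = 0.011).

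At P38 Ccl2 was detected in 29.7%, Epgn in 22.7%, Procr in 18.8% and Cxcl10 in 17.2% of the 128 hair germ cells (median 15166.5 UMIs), against 18.5%, 10.1%, 1.79% and 4.17% of the 168 outer bulge cells (median 14838.5 UMIs). Interfollicular basal cells at P38 (median 19019 UMIs) gave 15.7%, 49.8%, 9.68% and 10.6%, so Epgn was seen in a larger share of basal cells than of hair germ cells. The 5 hair germ cells with the most UMIs held 62.2% of the Ccl2, 76.0% of the Epgn, 73.6% of the Procr and 78.8% of the Cxcl10 UMIs at P38. By contrast, the same number of cells held 14.9% of the Gja1 UMIs at P38, with Hilpda in between at 50.9%. At 12 months 5 of the 15 cells held 97.3% of the Epgn, 97.8% of the Cxcl10 and 64.2% of the Gja1 UMIs.

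**Figure D3:**
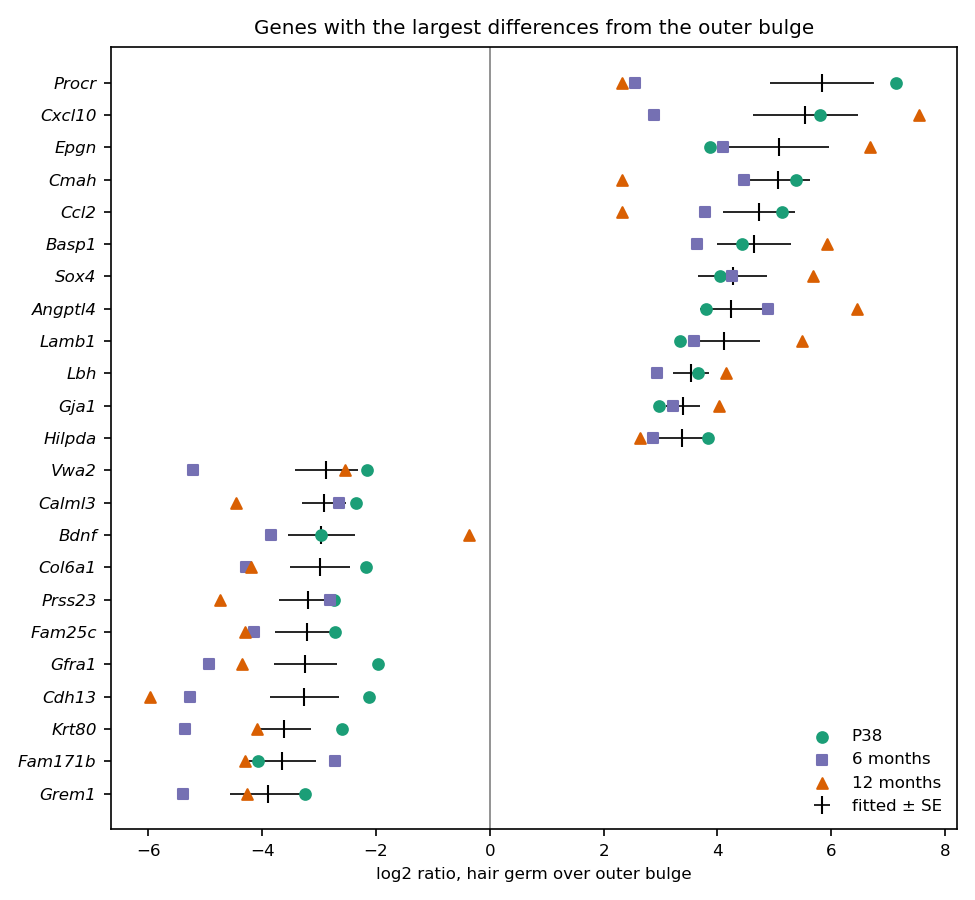
Log2 ratio of hair germ over outer bulge cells (horizontal axis) in each library (coloured points) and as fitted by edgeR (bar, ± SE), for called genes among the 12 with the largest fold change in each direction. The SE was derived from the F statistic of the test. The fitted value of Gja1 is 3.39 and that of Grem1 −3.89, and the Bdnf point of 12 months lies close to 0 with 10.5 CPM in hair germ cells and 14.0 CPM in outer bulge cells.

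Among the genes lower in hair germ cells, Grem1, a secreted BMP antagonist, had 34.1, 7.18 and 28.1 CPM at P38, 6 months and 12 months, against 327, 313 and 572 CPM in outer bulge cells (log2 fold change −3.89 ± 0.67, adjusted p = 0.011, and 0.053 without 12 months). Nog, the BMP antagonist noggin, had 4.59, 0.598 and 0 CPM, against 80.0, 20.2 and 28.1 CPM (−4.21 ± 0.64, adjusted p = 0.0053). Every hair germ value of both BMP antagonists lay below every bulge value. They were the 2 genes called among 21 tested of the BMP pathway, and the median of that list was −0.10.

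Bdnf, a neurotrophin, had 8.66, 8.37 and 10.5 CPM in hair germ cells, against 69.6, 123 and 14.0 CPM in outer bulge cells (−2.96 ± 0.59, adjusted p = 0.026). Gfra1, a receptor for glial cell line-derived neurotrophic factor, had 22.4, 4.19 and 3.51 CPM, against 88.8, 135 and 105 CPM (−3.24 ± 0.55, adjusted p = 0.011). Plxna2 and Sema3e, a receptor and a ligand of semaphorin signalling, were lower too, by −2.35 and −1.97 (adjusted p = 0.0099 and 0.032). Of 19 neurotrophin and axon guidance genes tested, Bdnf, Sema3e and Plxna2 were the 3 called, all lower.

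Calml3, a calmodulin-like protein of epithelia, had 98.3, 82.5 and 24.6 CPM in hair germ cells, against 501, 521 and 575 CPM in outer bulge cells (−2.91 ± 0.39, adjusted p = 0.0025), and Krt80, a keratin, had 8.66, 1.79 and 3.51 CPM, against 54.0, 84.7 and 87.7 CPM (−3.62 ± 0.48, adjusted p = 0.0025). For both genes no hair germ value reached the lowest bulge value. Further genes of the same rank were Fam171b (−3.64), Cdh13 (T-cadherin, −3.26), Fam25c (−3.21), Prss23 (a serine protease, −3.19), Col6a1 (a collagen VI chain, −2.98) and Vwa2 (a basement membrane protein, −2.87), with adjusted p between 0.0083 and 0.021.

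Most single calls needed the 6 months library. Of the genes of these ranks named here, Lbh, Gja1 and Cxcl10 kept an adjusted p under 0.05 without the 6 months library (0.022 each), and the other 20 had adjusted p between 0.061 and 0.53 there. Lbh and Gja1 kept it without each of the other libraries too, whereas Cxcl10 had an adjusted p of 0.13 without P38. Also without P38, Epgn (0.091), Basp1 (0.063), Hilpda (0.051), Fam171b (0.071), Prss23 (0.097) and Bdnf (0.2) were not called, and Procr and Ccl2 were not among the genes tested. All of them had the same direction in each of the 3 libraries, as the choice of named genes required.

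Gene lists gave the following picture against the outer bulge, beside the median of 0.04 over all genes. Of 16 outer bulge genes tested, 4 were lower in hair germ cells, with a median of −1.32: Ptn (pleiotrophin, −1.87), Ccn2 (−1.94), Aqp3 (−2.67) and the transcription factor Foxc1 (−2.34). Krt15 itself had a log2 fold change of −2.01 ± 0.61 and an adjusted p of 0.14. Of 11 genes of the epidermal growth factor family and its receptors, Epgn and Nrg1 (neuregulin 1) were higher, with a median of 0.93. Nrg1 had 252, 530 and 42.1 CPM in hair germ cells, against 17.2, 72.6 and 7.02 CPM in outer bulge cells (3.21 ± 0.56, adjusted p = 0.011).

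Junction and matrix genes moved both ways. Of 14 desmosome and gap junction genes, Gja1 and Gjb2 (connexin 26) were higher and Gjb5 (a further connexin) and Dsg3 (desmoglein 3) lower, with a median of −0.83. Gjb2 had 28.5, 627 and 10.5 CPM in hair germ cells, against 5.2, 38.3 and 0 CPM in outer bulge cells (3.36 ± 0.55, adjusted p = 0.0087), so its level at 6 months stood far above those of the other libraries. Of 36 matrix genes, Lamb1 and Col4a1 (a collagen IV chain, 73.4, 243 and 77.2 CPM against 30.8, 28.2 and 21.0 CPM, 2.02 ± 0.36, adjusted p = 0.013) were higher and Col6a1 and Ccn2 lower, with a median of 0.14. Timp3, an inhibitor of metalloproteinases, was also higher, with 252, 1509 and 288 CPM against 51.6, 30.3 and 102 CPM (3.27 ± 0.65, adjusted p = 0.025).

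No gene of the Wnt or hedgehog lists was called against the outer bulge. edgeR called 0 of 9 Wnt ligands, 0 of 16 Wnt receptors, 0 of 16 Wnt inhibitors and feedback targets and 0 of 10 hedgehog pathway genes. At an unadjusted p under 0.05, 2 ligands were lower, 2 receptors higher and 2 lower, 1 inhibitor higher and 3 lower, and 1 hedgehog gene lower. DESeq2 called 1 inhibitor and 1 hedgehog gene lower and none of the ligands and receptors. Of 9 Notch genes and 11 FGF genes edgeR also called 0, with 1 Notch gene lower and 2 FGF genes higher and 1 lower at an unadjusted p under 0.05 and 0 by DESeq2. Shh was at 0 UMIs in the hair germ cells of all 3 libraries.

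Of 26 transcription factors of the follicle tested, Foxc1, Hopx and Tfap2b were called, all lower, with a median of −0.45. Hopx had 104, 29.9 and 52.7 CPM in hair germ cells, against 293, 426 and 614 CPM in outer bulge cells (−2.68 ± 0.41, adjusted p = 0.0055), and Tfap2b had 83.1, 106 and 77.2 CPM in hair germ cells, against 198, 178 and 302 CPM in outer bulge cells (−1.20 ± 0.27, adjusted p = 0.049). Sox9 had a log2 fold change of −0.53 ± 0.36 (adjusted p = 0.63), Lhx2 of −0.88 ± 0.31 (adjusted p = 0.24) and Runx1 of 0.75 ± 0.23 (adjusted p = 0.16). Mitf, which the melanocyte list holds, was lower (−2.29 ± 0.50, adjusted p = 0.041). Of 16 immediate early genes and 12 heat shock genes, which rise during tissue dissociation, edgeR and DESeq2 each called 0, with 1 and 3 higher at an unadjusted p under 0.05 and medians of 0.29 and 0.20.

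Without the 12 months library, the lists over the outer bulge gave 3 lower of 16 outer bulge genes, 3 higher of 11 genes of the epidermal growth factor family, 2 higher and 1 lower of 14 junction genes, 3 higher and 2 lower of 36 matrix genes, 1 lower of 21 BMP genes, 1 higher and 3 lower of 19 neurotrophin and axon guidance genes, and 2 lower of 26 transcription factors. Without the 6 months library these lists gave 0 called genes, except Gja1, higher among 15 junction genes. Without P38 they gave 4 lower of 16 outer bulge genes and 0 of 9 genes of the epidermal growth factor family. Junction genes then gave 1 higher and 1 lower of 13, and matrix genes 2 higher and 2 lower of 29. There were also 1 lower of 18 BMP genes, 0 of 15 neurotrophin and axon guidance genes and 2 lower of 22 transcription factors.

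**Figure D4:**
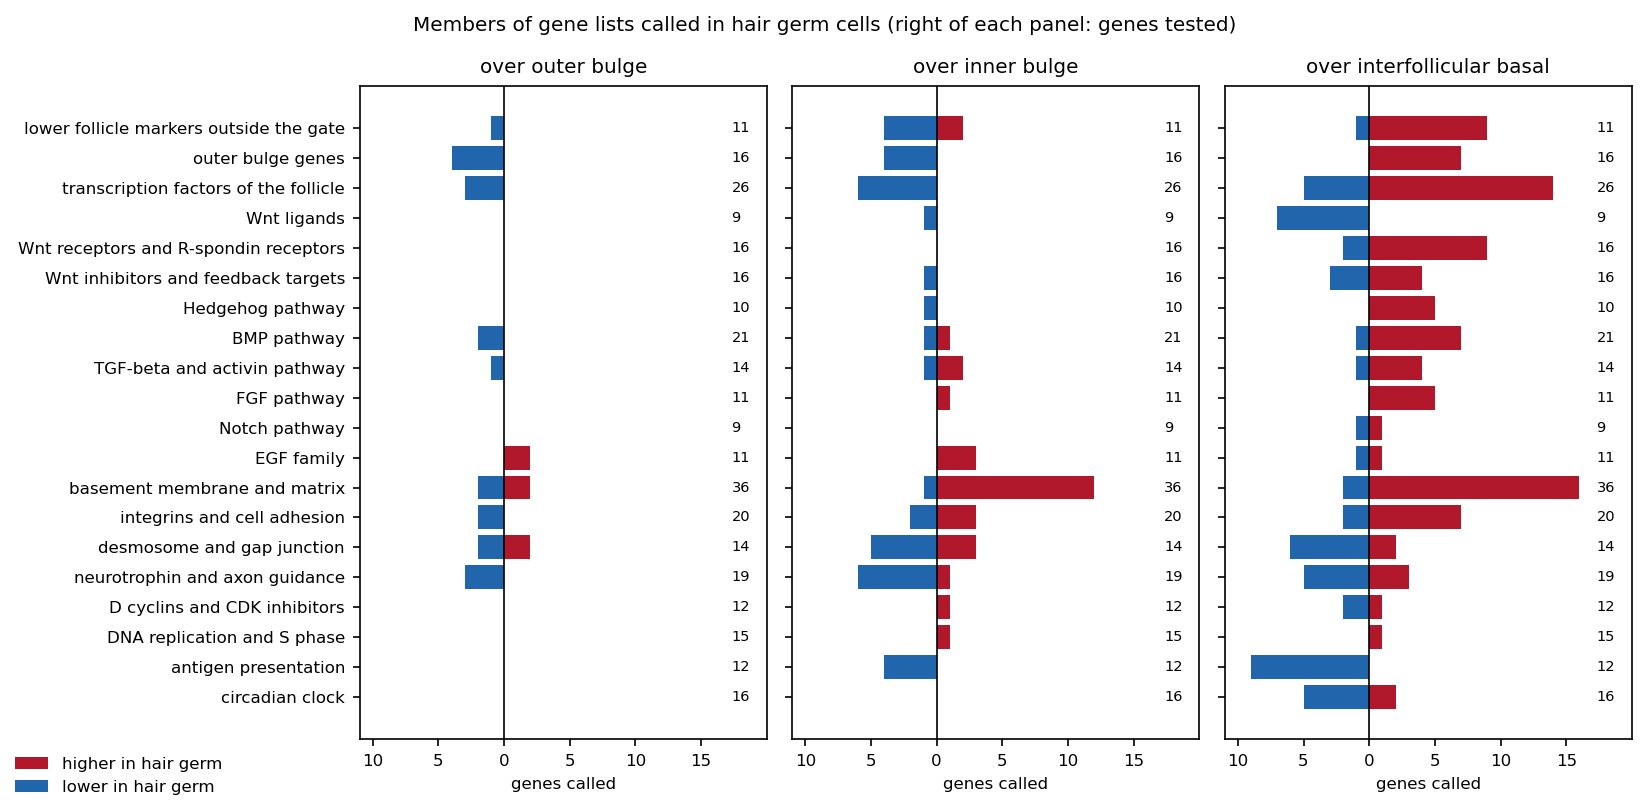
Number of genes of each list called higher (red, to the right) and lower (blue, to the left) in hair germ cells over outer bulge, inner bulge and interfollicular basal cells, with the number tested at the right of each panel. The matrix list has 2 higher and 2 lower of 36 over the outer bulge, 12 and 1 over the inner bulge and 16 and 2 over the interfollicular basal cells.

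Against the inner bulge, the layer of differentiated niche cells next to the hair shaft, 200 genes were higher (2.15%) and 264 lower (2.83%) in hair germ cells, with a median log2 fold change of 0.05. The counts were 268 and 288 without the 12 months library, 20 and 69 without P38 and 23 and 38 without 6 months. Of 36 matrix genes tested, 12 were higher in hair germ cells and 1 (Col4a4) lower, with a median of 1.17.

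Sparc, a secreted matrix-binding glycoprotein, had 1186, 897 and 87.8 CPM in hair germ cells at P38, 6 months and 12 months, against 76.3, 129 and 53.2 CPM in inner bulge cells (log2 fold change 2.93 ± 0.59, adjusted p = 0.014). Thbs1 (thrombospondin 1) had 1679, 566 and 309 CPM, against 71.1, 139 and 38.7 CPM (3.26 ± 0.52, adjusted p = 0.0034), and Col4a1 had 73.4, 243 and 77.2 CPM, against 7.81, 24.8 and 4.84 CPM (3.44 ± 0.45, adjusted p = 0.0011). The P38 and 6 months hair germ values lay above every inner bulge value, while Sparc at 12 months lay below the inner bulge value of 6 months. Tnc (tenascin C), Bgn (biglycan), Col18a1 and Fbln2 (fibulin 2) were higher as well, by 2.96, 3.87, 2.35 and 5.34.

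Gja1 was higher than in the inner bulge too (108, 184 and 38.7 CPM there, log2 fold change 4.02 ± 0.32, adjusted p = 0.00012), and Nrg1 had 17.3, 4.97 and 0 CPM in inner bulge cells (4.39 ± 0.66, adjusted p = 0.0027). Cxcl1, a chemokine for neutrophils, had 211, 29.3 and 17.6 CPM in hair germ cells, against 1.73, 0 and 0 CPM in inner bulge cells (6.42 ± 1.47, adjusted p = 0.025). Cxcl1 was seen in 18.8% of hair germ cells at P38, and 5 cells held 84.1% of its UMIs there. Procr had 0 UMIs in the inner bulge cells of all 3 libraries (adjusted p = 0.0037), and against a floor of 3 UMIs over that class it was at least 61.4-fold higher in hair germ cells.

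Lamb1, Basp1 and Angptl4 were also among the 6 genes with the largest excess over the inner bulge (log2 fold changes 6.05, 5.96 and 4.69, with adjusted p of 0.0031, 0.0031 and 0.0016). Without 6 months the adjusted p was 0.077 for Lamb1, with a log2 fold change of 9.50, 0.064 for Basp1 and 0.12 for Cxcl1. Without P38 it was 0.33 for Cxcl1 and 0.045 for Basp1, whose log2 fold change was then 10.73, and Procr was not among the genes tested. In the other direction, Dhrs2 had 0 UMIs in hair germ cells, against 31.2, 124 and 14.5 CPM in inner bulge cells (adjusted p = 0.00078), and was at least 53.6-fold lower by the same floor. Adcy1, an adenylate cyclase, had 1.53, 0 and 0 CPM, against 87.6, 109 and 38.7 CPM (−6.66 ± 0.60, adjusted p = 0.00012), and Tspan2, a tetraspanin, had 0.51, 1.79 and 0 CPM, against 52.9, 134 and 24.2 CPM (−6.33 ± 0.57, adjusted p = 0.00012). These genes were close to absent from the hair germ cells in all 3 libraries.

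Chit1, a chitinase, had 0.51, 0 and 0 CPM in hair germ cells, against 115, 9.94 and 67.8 CPM in inner bulge cells (−8.19 ± 1.35, adjusted p = 0.0044). Krtdap and Spink5, genes of differentiating keratinocytes, had log2 fold changes of −6.75 ± 1.61 and −5.69 ± 1.31 (adjusted p = 0.03 and 0.026), and −3.61 and −3.35 without 12 months, where inner bulge cells held 11029 CPM of Krtdap and 1515 CPM of Spink5. Sox9 was lower in hair germ cells than in the inner bulge (2112, 1769 and 958 CPM there, −1.38 ± 0.36, adjusted p = 0.046), as was Perp, a desmosome gene (1024, 926 and 572 CPM in hair germ cells, against 3183, 2951 and 2328 CPM in inner bulge cells, −1.70 ± 0.18, adjusted p = 0.00035). Of 14 desmosome and gap junction genes 5 were lower and 3 higher, with a median of −1.31, and of 9 epidermal differentiation genes 4 were lower, with a median of −2.27. Without P38 the adjusted p was 0.22 for Chit1 and 0.1 for Krtdap, and without 6 months 0.092 for Krtdap and 0.08 for Spink5. Without the 12 months library the lists gave 12 higher and 1 lower of 36 matrix genes, 3 higher and 6 lower of 14 junction genes and 5 lower of 9 epidermal differentiation genes. The counts of these lists without P38 or 6 months are not reported here. Over all genes, calls fell to 20 higher and 69 lower without P38 and to 23 and 38 without 6 months.

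Against the interfollicular basal cells, 845 of the tested genes were higher (9.07%) and 592 lower (6.35%) in hair germ cells, with a median of −0.00. The counts were 1013 and 742 without the 12 months library, 239 and 213 without P38 and 474 and 247 without 6 months. Lhx2, a homeodomain transcription factor of follicle stem cells, had 175, 216 and 372 CPM in hair germ cells, against 1.2, 2.85 and 1.25 CPM in interfollicular basal cells (7.22 ± 0.44, adjusted p = 1.2e-06).

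Lbh, at 0.956, 0.713 and 0.624 CPM in basal cells, was higher in hair germ cells by 7.05 ± 0.37 (adjusted p = 3.9e-07). Shisa2, which retains Wnt and FGF receptors inside the cell, had 228, 208 and 94.8 CPM, against 1.91, 2.85 and 0.624 CPM (6.70 ± 0.60, adjusted p = 1.3e-05). Sardh, the mitochondrial sarcosine dehydrogenase, had 41.3, 119 and 17.6 CPM, against 0.239, 0 and 0.208 CPM (7.01 ± 0.55, adjusted p = 6.6e-06). Mfge8, a secreted protein that binds phosphatidylserine, had 261, 190 and 17.6 CPM, against 1.67, 2.14 and 1.14 CPM (6.33 ± 0.71, adjusted p = 5.8e-05), and Basp1 was higher by 6.61 (adjusted p = 1.6e-05). Every hair germ value of these genes lay above every basal value, those at 12 months included.

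Of 26 follicle transcription factors, 14 were higher and 5 lower than in basal cells, with a median of 1.32. Runx1 had 366, 292 and 235 CPM in hair germ cells, against 22.5, 22.1 and 22.5 CPM in interfollicular basal cells (3.58 ± 0.25, adjusted p = 3.1e-06). Tbx1, a T-box factor of the follicle, had 133, 231 and 105 CPM, against 2.15, 2.14 and 1.25 CPM (6.21 ± 0.51, adjusted p = 8.1e-06), and Hoxc13, a homeobox factor of hair keratin genes, had 105, 80.1 and 52.7 CPM, against 1.67, 5.7 and 0.728 CPM (5.14 ± 0.41, adjusted p = 7.3e-06). Of 11 lower follicle markers that the rule did not read, 9 were higher and 1 lower, with a median of 3.30, Sox9 (3.10), Gas1 (3.30), Dkk3 (4.58) and Tnc (4.76) among the 9. Over the outer bulge the same list gave 0 higher and 1 lower (Hopx), with a median of −0.29. Over the inner bulge it gave 2 higher and 4 lower (0 and 2 without P38), with a median of −0.22. Of 16 outer bulge genes, 7 were also higher than in basal cells and 0 lower, with a median of 1.62.

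Wnt ligands and Wnt receptors went opposite ways against the basal cells. Of 9 ligands 7 were lower, with a median of −2.48, and edgeR called 0 higher (0 higher and 8 lower at an unadjusted p under 0.05, 0 and 6 by DESeq2). Wnt3 had 2.04, 0 and 0 CPM in hair germ cells, against 73.9, 148 and 54.2 CPM in interfollicular basal cells (−6.68 ± 0.62, adjusted p = 1.6e-05), and Wnt4 had 30.1, 28.1 and 84.3 CPM, against 79.4, 265 and 274 CPM (−2.20 ± 0.41, adjusted p = 0.0022). Wnt16 was at 0 UMIs in hair germ cells, against 21.0, 35.7 and 38.6 CPM. Of 16 receptors 9 were higher and 2 lower, with a median of 1.48, and Fzd2, a Frizzled receptor, had 254, 265 and 31.6 CPM, against 4.06, 10.7 and 4.79 CPM (4.79 ± 0.61, adjusted p = 0.00017).

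Of 10 hedgehog pathway genes 5 (Gli1, Gli2, Gli3, Gas1 and Boc) were higher than in basal cells, with a median of 2.20 (1.71 with Hhip, which was at 0 in 1 class, set at its bound). Gli2, a transcription factor of the pathway, had 28.5, 14.9 and 24.6 CPM in hair germ cells, against 2.39, 0 and 1.14 CPM in interfollicular basal cells (4.0 ± 0.55, adjusted p = 0.00027). Gli1, a hedgehog target, had 1.02, 3.59 and 56.2 CPM, against 0.239, 0.713 and 0.208 CPM, so the excess came mostly from the 12 months cells. Of 21 BMP pathway genes 7 were higher and 1 lower, Bmp4 (0.51, 0 and 3.51 CPM, against 34.4, 103 and 53.4 CPM, −6.80 ± 0.73, adjusted p = 0.00011). Grem1, lower than in the outer bulge, was higher than in the basal cells by 4.03.

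Of 36 matrix genes 16 were higher and 2 lower than in basal cells, with a median of 1.63, and Col5a2, a fibrillar collagen chain, had 54.5, 68.8 and 10.5 CPM in hair germ cells, against 0.478, 0 and 0.624 CPM in interfollicular basal cells (5.75 ± 0.52, adjusted p = 1.5e-05). Of 20 integrin and cell adhesion genes 7 were higher and 2 (Cdh1 and Cdh13) lower, with a median of −0.08. Alcam, a cell adhesion molecule of that list, had 284, 280 and 211 CPM, against 5.02, 6.42 and 5.51 CPM (5.49 ± 0.46, adjusted p = 8.2e-06). Krt8, a simple epithelial keratin, had 25.5, 57.4 and 3.51 CPM, against 0, 0 and 0.104 CPM (7.22 ± 0.91, adjusted p = 0.00016). With basal values of Krt8 this near 0, the size of its fold change is uncertain.

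Of 12 antigen presentation genes tested, 9 were lower in hair germ cells than in interfollicular basal cells, with a median of −1.65. B2m, the light chain of class I molecules, had 574, 548 and 197 CPM in hair germ cells, against 1682, 1765 and 1637 CPM in basal cells (−2.11 ± 0.33, adjusted p = 0.00061), and the class I heavy chain H2-K1 had 655, 670 and 207 CPM, against 1413, 1914 and 1106 CPM (−1.72 ± 0.35, adjusted p = 0.0039). The hair germ values lay below the basal values in every library. B2m was also lower than in the inner bulge (−1.35 ± 0.33, adjusted p = 0.031), where 4 of 12 genes of the list were lower (1 without the 12 months library). Over the outer bulge edgeR and DESeq2 called 0 of the 12, with 1 lower at an unadjusted p under 0.05 and a median of −0.21.

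The genes furthest below the basal cells were Chit1 (log2 fold change −9.11), Pyy (the gut hormone peptide YY, −7.89), Clca3a2 (−7.31), Bmp4, Wnt3 and Ndufa4l2 (−6.63). Clca3a2, a gene with close paralogs that can share reads, had 8.66, 5.38 and 3.51 CPM in hair germ cells, against 1049, 925 and 743 CPM in interfollicular basal cells (SE 0.39, adjusted p = 3.9e-07), and Ndufa4l2, a mitochondrial protein induced by low oxygen, had 29.6, 5.38 and 0 CPM, against 1338, 1385 and 762 CPM (SE 0.72, adjusted p = 4.9e-05). Both were abundant in basal cells of every library and low in every hair germ sum. Chit1 had an adjusted p of 0.052 without P38.

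Without the 12 months library, the lists over the basal cells gave 12 higher and 5 lower of 26 transcription factors, 9 higher and 1 lower of 11 lower follicle markers, 6 lower of 8 Wnt ligands, and 8 higher and 2 lower of 17 Wnt receptors. The hedgehog list gave 4 higher of 10, the BMP list 10 higher and 1 lower of 21, the matrix list 18 higher and 1 lower of 36, the adhesion list 5 higher and 3 lower of 20, and the antigen presentation list 7 lower of 12. The list counts without P38 or 6 months are not reported here. Over all genes, calls fell to 239 higher and 213 lower without P38 and to 474 and 247 without 6 months.

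Within the hair germ cells the 3 ages were set side by side without a test, since there was 1 library per age. A gene was counted when its absolute log2 ratio was at least 1 among genes with at least 20 UMIs in the 2 libraries together. Between 6 months and P38, 1091 of 9155 genes were higher (11.9%) and 590 lower (6.44%) at 6 months. Between 12 months and P38, 802 of 7638 were higher (10.5%) and 1442 lower (18.9%) at 12 months, and between 12 months and 6 months, 597 of 7699 were higher (7.75%) and 1841 lower (23.9%). The median ratio over all genes was 0.23, −0.03 and −0.25, and 0.01, −0.04 and −0.04 with totals scaled by TMM (trimmed mean of M values). The 12 months sums rest on 15 cells and on 284841 UMIs.

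Some of the differences between 6 months and P38 were shared with other classes. Of the 1091 genes higher at 6 months, 283 of 689 that could be measured in the outer bulge (41.1%) were past the same ratio there, and 191 of 783 in the interfollicular basal cells (24.4%). In these classes 16 and 14 of them were past it the opposite way. Of the 590 lower genes, 215 of 523 (41.1%) and 64 of 497 (12.9%) were past the ratio, with 23 and 50 the opposite way. The share of all genes past the ratio in those classes was not taken, so these shares have no background beside them. Gstp1, a glutathione transferase, had 1.02, 149 and 28.1 CPM in hair germ cells at P38, 6 months and 12 months (log2 ratio of 6 months over P38 6.87, 95% exact interval 5.32 to 10.24), and 2.4, 153 and 87.7 CPM in outer bulge cells. The same log2 ratio was 5.89 in outer bulge and 5.12 in interfollicular basal cells, so all 3 classes had it. Gstp1 has the near-identical copy Gstp2, between which reads can be split. Slit3, a secreted guidance ligand, had 0.51, 62.2 and 24.6 CPM in hair germ cells, 6.4, 12.1 and 31.6 CPM in outer bulge cells and 0.239, 12.8 and 6.97 CPM in interfollicular basal cells, where the log2 ratio of 6 months over P38 was 5.2 (3.08 to 11.13).

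Other genes were far higher at 6 months in hair germ cells. Gjb6 (connexin 30) had 2.04, 126 and 7.02 CPM in hair germ cells (5.79, 4.57 to 7.84), 0.4, 0 and 3.51 CPM in outer bulge cells and 1.43, 4.99 and 0.728 CPM in interfollicular basal cells. Gnmt, which methylates glycine, had 4.08, 155 and 38.6 CPM (5.16, 4.25 to 6.47), and 2.4, 6.05 and 14.0 CPM in outer bulge cells. Mup18, of a family of near-identical urinary protein genes, had 0, 68.8 and 0 CPM with UMIs in 14.7% of the cells at 6 months. Gja1, Gjb2, Gjb6 and Dsg2 were the 4 of 13 junction genes past the ratio upward, so 3 connexins were at their highest in the 6 months hair germ cells.

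Trf, which encodes the iron carrier transferrin, had 84.6, 439 and 0 CPM in hair germ cells and was detected in 16.4%, 74.1% and 0% of them, against at most 2.22% of outer bulge cells and 0.833% of interfollicular basal cells. The 12 months value was at least 41.7-fold lower than that of 6 months against a floor of 3 UMIs per library. Sfrp1, a secreted Wnt antagonist, had 191, 1329 and 130 CPM, and Id4, an inhibitor of DNA binding, had 85.1, 741 and 66.7 CPM. Each of these was several-fold higher at 6 months than in both other libraries. Cd3e, a T cell gene, had 0, 76.5 and 0 CPM, with UMIs in 10.3% of the hair germ cells at 6 months and 2.5% of the interfollicular basal cells, while Cd3d, Cd3g and Cd2 were at 0.

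Of 18 BMP pathway genes measured in hair germ cells, 8 were past the ratio downward at 6 months over P38 (Bmp2, Bmp7, Id1, Id3, Smad7, Grem1, Fst and Fstl3) and 1 upward (Id4), with a median of −0.77. Fst, the activin and BMP antagonist follistatin, had 1426, 181 and 151 CPM at P38, 6 months and 12 months, and Bmp2, a BMP ligand, had 223, 17.9 and 130 CPM. Id1 and Id3, direct targets of BMP signals, had 975, 335 and 1130 CPM and 1293, 263 and 997 CPM. Id1, Id3 and Bmp2 were thus lowest at 6 months, and Fst was high at P38 alone.

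Other genes were lower at 6 months than at P38. Emp1, an epithelial membrane protein, had 1039, 56.8 and 260 CPM in hair germ cells (−4.19, −4.51 to −3.90), and 1490, 426 and 260 CPM in outer bulge cells. The metallothioneins Mt1 and Mt2, which bind zinc and copper, had 4267, 662 and 2679 CPM and 1411, 82.5 and 1597 CPM. Krtap17-1, a keratin-associated protein of the hair shaft, had 120, 0.598 and 7.02 CPM, with UMIs in 12.5% of hair germ cells and 11.9% of outer bulge cells at P38. Myoc had 60.1, 0 and 0 CPM and Ifi202b, an interferon-induced gene, 64.7, 1.2 and 14.0 CPM. Ccl20 and Cxcl9 were set by few cells: at P38 Ccl20 had UMIs in 3.12% and Cxcl9 in 1.56% of hair germ cells.

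The 12 months cells differed from both younger libraries in many genes. Cldn10, a tight junction claudin, had 3.06, 0.598 and 172 CPM in hair germ cells at P38, 6 months and 12 months (log2 ratio of 12 months over P38 5.71, 4.59 to 7.33) and was detected in 66.7% of the 15 cells at 12 months, against 0% of outer bulge, 0.407% of interfollicular basal and 0% of spinous cells there. Nrp2, a semaphorin and growth factor co-receptor, had 2.55, 0 and 80.7 CPM with 60% of cells at 12 months, against 0%, 0.543% and 0.625% in the same order. Npr3, the clearance receptor for natriuretic peptides, had 0, 0 and 35.1 CPM with 46.7%, against 0%, 4.21% and 0.625%. The median depth at 12 months was 19309 UMIs in hair germ, 6309 in outer bulge, 12715 in interfollicular basal and 17257 in spinous cells. The 5 hair germ cells with the most UMIs of each gene held 69.4% of the Cldn10, 78.3% of the Nrp2 and 80% of the Npr3 UMIs.

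Ptch1, the hedgehog receptor and target, had 9.68, 15.5 and 109 CPM, and was seen in 73.3% of the hair germ cells at 12 months, against 30.2% of outer bulge and 15.6% of spinous cells, whose depths are those just given. Gli1 had 1.02, 3.59 and 56.2 CPM with 53.3%, against 11.6% and 1.88%. Lef1, a transcription factor of Wnt signalling, had 6.62, 0 and 31.6 CPM with 46.7%, against 2.33% and 0.625%, and Axin2, a Wnt target, had 5.10, 1.79 and 35.1 CPM. Ccnd1 (cyclin D1) had 12.7, 93.3 and 193 CPM. The lists of these genes did not move one way. Of 7 hedgehog pathway genes measured, Ptch1 was past the ratio upward and Gli3, Gas1, Boc and Cdon downward at 12 months over P38, with a median of −1.02, and Ptch1 and Gli1 were upward and Gas1 downward over 6 months, with a median of −0.20. Of the Wnt inhibitors and feedback targets, 4 of 13 were upward and 4 downward over P38, with a median of −0.13, and 1 of 9 upward and 4 downward over 6 months, with a median of −0.86. Of 15 S phase genes 8 were past the ratio upward at 12 months over 6 months, with a median of 1.10 beside −0.25 over all genes. The rule had removed every cell with a UMI of Top2a or Mki67.

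Other genes high at 12 months were F3, the tissue factor of coagulation, with 41.3, 64.0 and 565 CPM in hair germ cells (3.77, 3.38 to 4.18) and 134, 46.4 and 0 CPM in outer bulge cells, and Sms, spermine synthase, with 8.15, 0.598 and 169 CPM (4.34, 3.53 to 5.29). Igfbp7, an insulin-like growth factor binding protein, had 9.17, 179 and 186 CPM, and 38.8, 244 and 200 CPM in outer bulge cells. Tagln, a smooth muscle gene, had 2.55, 87.9 and 84.3 CPM. Krt16, a stress-induced keratin, had 271, 22.1 and 593 CPM, and Rrad and Cldn4 were each seen in 13.3% of the cells at 12 months, which is 2 cells. The values at 12 months thus ranged from genes in most of the cells to genes in a pair of them.

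Among genes low at 12 months, Cxcl14, a chemokine of the follicle epithelium, had 4790, 2699 and 109 CPM in hair germ cells (−5.44, −6.02 to −4.95), and 5423, 6652 and 2856 CPM in outer bulge cells. S100a4, a calcium-binding protein, had 658, 83.1 and 7.02 CPM, and 1593, 2389 and 3126 CPM in outer bulge cells. Krt6a, a keratin of the companion and inner bulge layers, had 747, 115 and 10.5 CPM, and Aqp3, a water and glycerol channel, had 824, 172 and 28.1 CPM. Ccl7, a chemokine for monocytes, had 285, 38.3 and 3.51 CPM, Them5 98.8, 216 and 0 CPM, and the collagen gene Col16a1 112, 390 and 10.5 CPM. Both Cxcl14 and S100a4 stayed high in outer bulge cells of the 12 months library. The other genes named here did not all do so. With ages in the same order, the outer bulge held 1674, 418 and 102 CPM of Krt6a and 1887, 1539 and 817 CPM of Aqp3. It held 125, 186 and 7.02 CPM of Them5 and 20.8, 20.2 and 0 CPM of Ccl7. Col16a1 had 21.2, 76.7 and 24.6 CPM there, lower than at 6 months only. Low values at 12 months were thus not confined to hair germ cells. Krt6a has a near-identical copy in Krt6b, so its level is uncertain.

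Of 12 lower follicle markers that the rule did not read, 7 were past the ratio downward at 12 months over P38 (Gas1, Dkk3, Barx2, Tnc, Sox9, Pthlh and Tgfb2) and 2 upward (Lef1 and Lhx2), with a median of −1.11. Of 36 matrix genes 18 were downward and 6 upward, with a median of −0.94, and Sparc had 1186, 897 and 87.8 CPM and Postn (periostin) 999, 624 and 38.6 CPM. Of 16 immediate early genes 10 were downward, with a median of −1.19, Fos at 8145, 4951 and 3907 CPM and Btg2 at 2987, 2994 and 341 CPM. Of 12 heat shock genes 6 were downward, with Hspb1 at 11546, 4244 and 765 CPM. The immediate early and heat shock lists, which respond to dissociation, differed between the ages, and their part in the other differences was not tested.

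**Figure D5:**
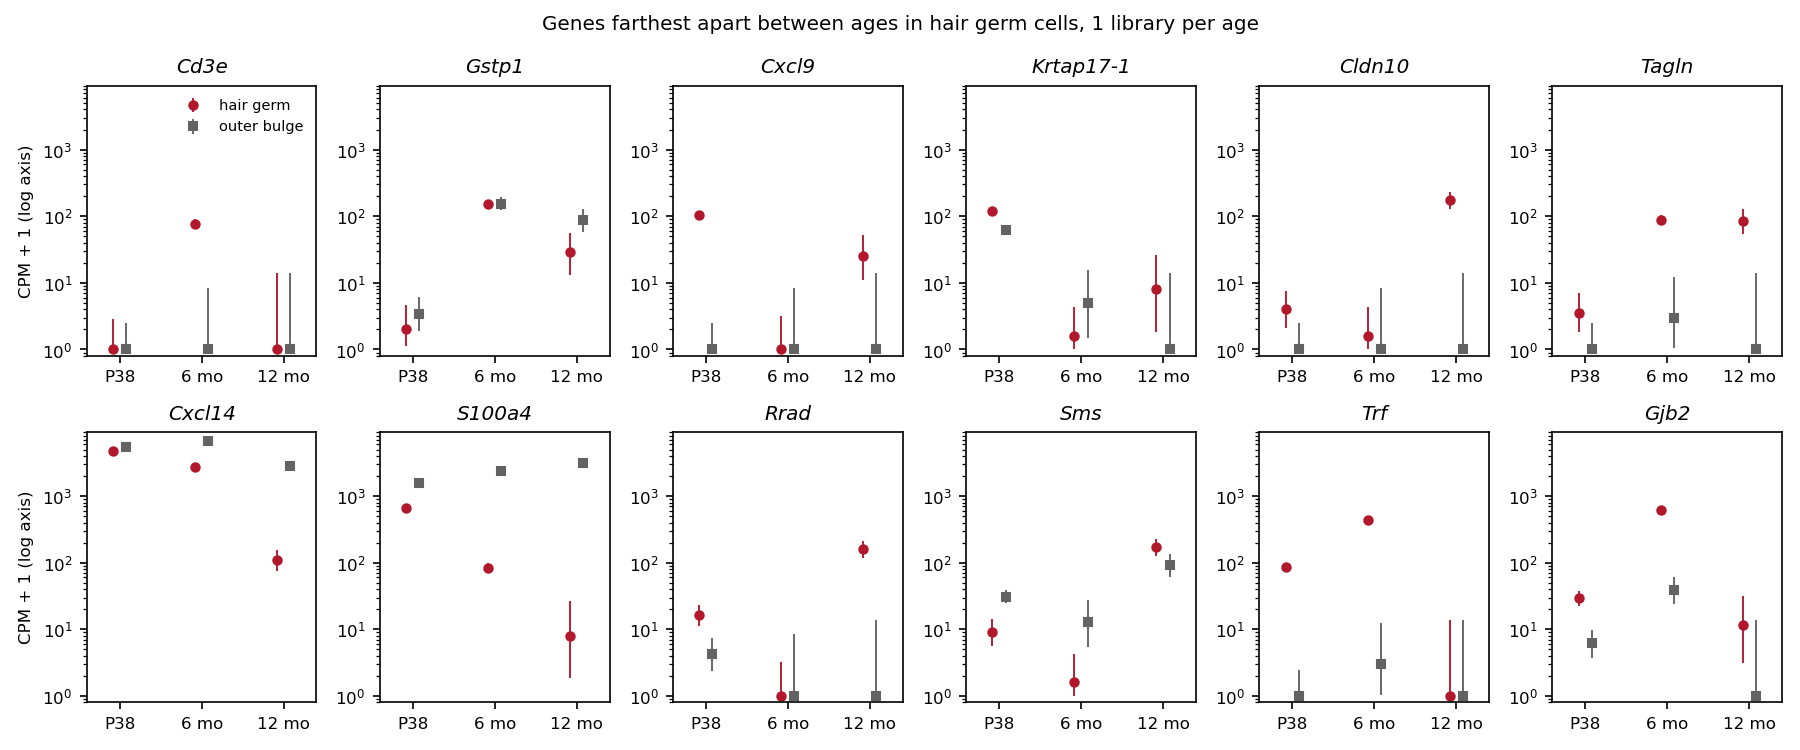
Levels (vertical axis, CPM + 1, logarithmic) of 12 genes far apart between ages in hair germ cells (red circles) and outer bulge cells (grey squares) at P38, 6 months and 12 months, with 95% exact Poisson intervals. In hair germ cells Cldn10 lies at 172 CPM at 12 months and at most 3.06 CPM at the other ages, Trf at 439 CPM at 6 months, and Cxcl14 at 109 CPM at 12 months, where outer bulge cells held 2856 CPM.

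The hair germ cells also varied among themselves within a library. With each cell thinned to 5000 UMIs (124, 112 and 15 cells at P38, 6 months and 12 months), the variance over the mean of a gene's UMIs had a median over genes of 1.21, 1.17 and 1.14. Nppc stood at 38.4 at P38, with a median of 2 UMIs per cell, a maximum of 111 and 41 cells at 0, and at 21.6 at 6 months, with a maximum of 68 and 40 cells at 0. The 5 cells with the most Nppc held 40.2% of its UMIs at P38 and 40.7% at 6 months, whereas the same number of cells held 14.3% and 21.3% of the Lgr5 UMIs. Nppc was thus concentrated in fewer cells than Lgr5, both being genes of the rule.

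Mitochondrial and ribosomal protein genes and gene models named Gm were left out of the ranking. The genes of highest variance over mean at P38 were Malat1 (44.4), Cxcl9 (43.8, with 122 of 124 cells at 0), Cxcl1 (40.9), Mt1 (39.3), Fos (39.0), Nppc and Ccl2 (30.0, with 95 cells at 0), and Fst stood at 23. At 6 months Malat1 (42.6) and Fos (36.1) ranked above Nppc, and Igfbp5 (18.7, with 110 of 112 cells at 0), Isg15 (18.5), an interferon-induced gene, and Krt15 (17.97) came next. At 12 months Fos (49.3), Mt1 (21.4), Malat1 (20.9), Junb (18.2) and Id1 (17.5) ranked highest.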

How the data were processed

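Single-cell transcripts were measured with 10X Chromium 3ʹ version 3 chemistry in back skin of 3 libraries, 1 per age. Per the labels, dissociated skin was loaded, whereas the study's methods describe a sort of GFP-positive epithelial cells. The deposited values are the authors' UMI counts for 32285 genes in each barcode, not normalized. The submitters' processing notes name Cell Ranger 6.1.2, the file headers 6.0.0 or 6.1.2, with reads mapped to mm10. Barcodes numbered 2397, 4761 and 5421 at P38, 6 months and 12 months, of which the study's stated filter, applied here, left 2109, 3502 and 3240. At 6 months the study states fewer cells than that, and 1839 of the 3502 had under 1000 genes, among them 1 of the 116 hair germ cells.

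Cells were chosen by gates on counts in Python 3.11.15 with scanpy 1.11.5 and scipy 1.17.1, and cells in 2 comparison gates (69, 21 and 144) were left out. The members and the 41 gene lists (592 entries, 590 matched) were chosen with earlier results of these data known. Doublets were not removed in the main analysis. UMIs were summed per class and library for classes with at least 10 cells. The sums were tested with edgeR 4.0.16 in R 4.3.3 (TMM, filterByExpr, quasi-likelihood, 4 classes and the library as a block, 6 residual degrees of freedom). With the block, the test measures how class differences spread between the 3 libraries, pooled over the 4 classes. Each of these libraries is of another age. The classes of a library come from 1 suspension. Their deviations from the class means correlated between −0.03 and 0.51 in 18 pairs of the same library and between −0.50 and 0.16 in 36 pairs of different libraries. On simulated counts for the outer bulge comparison with 9347 genes, 83 of 100 genes changed by a log2 of 2 and 10 of 100 changed by a log2 of 1 were called, with 5 unchanged genes called. Apart from the changed genes, the simulated classes had the same means and library effects, and every gene had the same dispersion. These rates therefore need not hold for the real counts.

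The genes named were the 12 (outer bulge) or 6 (other classes) called genes with the largest fold change in each direction, with the same sign in every library and at least 50 CPM in the higher class, called members of the lists, and for each pair of ages the 6 genes in each direction whose interval lay farthest from 0. Detection shares, per-cell variation and list members that were not called but are described were chosen after their values were seen. CPM are UMIs per 1000000 of a class sum. Age ratios add 0.5 counts and carry exact conditional intervals (95%). Alternatives were DESeq2 1.42.0, no filter, no block, each library left out, only 2 classes, cells thinned to 3000 UMIs, other thresholds and scalings, Scrublet scores (0.8% per 1000 barcodes) and, chosen after seeing the data, no barcodes found in 2 libraries, T cells from 5 genes and no 12 months library. Promoters come from a RefSeq table on GRCm38.p6. Other ages and open chromatin were not used here. Some genes that the naming rule selects are not reported here.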

Additional observations from a re-analysis of the deposited data

Results flagged for a closer look

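Some barcodes outside the cell filter also met the rule for hair germ cells. Among barcodes with 15% or more mitochondrial UMIs, 2.38% met it at P38 (4 of 168, where a count of 0 would allow up to 1.79%) and 1.58% at 6 months (13 of 825, up to 0.364%). Among barcodes with 5000 or more genes, 1.15% met it at 6 months (5 of 433, up to 0.693%). These barcodes entered no result above.

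Lgr5 and Gas1 differed in direction between libraries when hair germ cells were set against outer bulge cells. The log2 ratio of Lgr5 was 0.54 at P38, −0.02 at 6 months and −0.69 at 12 months. That of Gas1 was 0.43 at P38, −0.98 at 6 months and −2.84 at 12 months. With 1 library per age the difference between the ages was not tested, and Lgr5 belongs to the rule that chose the cells.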

How the results depend on the processing

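With each library left out in turn, the counts over the outer bulge ranged from 4 to 82 higher and 1 to 68 lower genes (53 and 77 with all libraries), over the inner bulge from 20 to 268 and 38 to 288 (200 and 264), and over interfollicular basal cells from 239 to 1013 and 213 to 742 (845 and 592). The classes of a library come from the same suspension. Without that pairing, that is with no replicate block, the counts were 14 and 22 over the outer bulge, 58 and 113 over the inner bulge and 683 and 415 over basal cells. DESeq2 called 134 lower over the outer bulge. With no filter on low counts, 319 higher and 253 lower were called over the outer bulge, 499 and 499 over the inner bulge and 892 lower over basal cells. With only the compared classes in the fit, 43 were lower over the outer bulge, 43 higher and 70 lower over the inner bulge, and 388 and 349 over basal cells. With cells thinned to 3000 UMIs, 33 were higher over the outer bulge, 89 higher and 119 lower over the inner bulge, and 386 and 290 over basal cells. With at least 5 of the 8 genes, where the 12 months sum has too few cells, 166 were higher and 139 lower over the outer bulge and 398 higher over the inner bulge. Without barcodes found in 2 libraries, an alternative chosen after seeing the data, the counts were 54 and 85, 197 and 292, and 845 and 599. Of the 48 values of named genes in these comparisons, 25 lost their call without 6 months, 12 without P38, 15 with no replicate block, 3 with only the compared classes, 2 with at least 5 of the 8 genes, 1 without 12 months and 1 after thinning. Only 34 of them could be fitted after thinning, 42 without P38 and 46 with only the compared classes, and of those fitted none changed sign. The choice of named genes required the same sign in every library, so this outcome was largely set beforehand. At 12 months 52 cells met a threshold of 3 of 8 genes and 2 that of 5. Thinned to 2000 or 5000 UMIs, the share was 1.83% or 4.36% at P38 and 6.03% or 13.8% at 6 months. For the age ratios, TMM-scaled totals gave 705 genes higher at 6 months over P38 and 919 higher at 12 months over 6 months. Thinned cells gave 485 higher and 353 lower at 6 months over P38, 295 and 599 at 12 months over P38, and 248 and 678 at 12 months over 6 months. A minimum of 50 UMIs gave 599 and 388, 334 and 891, and 252 and 1055. Totals without mitochondrial and ribosomal protein genes gave 1652 higher and 939 lower at 12 months over P38 and 1051 higher at 12 months over 6 months. The 12 months values rest on 15 hair germ cells, the fewest of the 3 libraries. The causes of these shifts were not tested.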

Other observations

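The natriuretic peptide receptor genes were almost unseen in the hair germ cells of the younger libraries, although these cells held much Nppc. Npr2, the signalling receptor of C-type natriuretic peptide, had 1.02, 2.39 and 0 CPM at P38, 6 months and 12 months. Npr3, which clears the peptide, had 0, 0 and 35.1 CPM, in 7 of the 15 cells at 12 months, the library with the least Nppc in these cells. Itga2, an integrin subunit, had 35.7, 12.0 and 161 CPM, and Plet1, a marker of the upper follicle, had 363, 85.5 and 453 CPM. These values are given as measured, with 1 library per age.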
